A study of Mus musculus with 6 samples.

Results

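Genes of trophoblast fate and placental fusion were examined in 6 mouse libraries of DNA methylation. The members are 10 genes chosen by name: Tead4, Cdx2, Eomes, Tfap2c, Elf5, Ascl2, Hand1, Gcm1, Syna and Synb. Every cytosine position within a gene or 5 kb of its ends, with at least 10 reads in a library, was taken. This gave 787 positions in 9 members, of which 165 reached 10 reads in all 6 libraries and 381 in exactly 1 library. Synb, the gene of syncytin B, was not analysed here, since no position of the files used fell in it. At least 3 promoter cytosines in all 6 libraries were available for 3 members (Ascl2, Cdx2 and Eomes), and at least 3 cytosines of the body and flanks for 7. Over the whole series, 8161 genes had such a promoter and 9742 such a body, of 26798 genes with a transcript start.

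The libraries were made by reduced representation bisulfite sequencing (RRBS), in which the enzyme MspI cuts at CCGG and the resulting fragments are converted with bisulfite and sequenced. The measured cells were 3 double-knockout (DKO) and 2 wild-type (WT) lines of androgenetic haploid embryonic stem cells, plus 1 sample of round spermatids from testis, the control named in the design. All came from C57BL/6 mice. Androgenetic haploid ES cells derive from embryos whose only chromosomes are paternal, and the lines were kept on feeders, with the kinase inhibitors called 2i in their ES medium. DKO lines 1, 2 and 3 are titled H19△DMR-IG△DMR-AGH-4, H19△DMR-IG△DMR-OG3-2 and IG△DMR-H19△DMR-AGH-2, at passages 32, 31 and 29, and lack imprinting control elements of H19 and of Dlk1-Meg3 per their names. WT lines 1 and 2 are titled AGH-OG3 and AGH-2, at passages 31 and 18. DKO line 2 shares the name OG3 with WT line 1, and DKO line 3 shares AGH-2 with WT line 2. Separate embryos of origin are not stated, so p-values measure the spread between these lines only. Round spermatids had a single library, so a comparison with them has no test.

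Mammalian embryos set aside trophoblast, the source of the placenta, before the embryo proper forms. In the mouse, TEAD4 acts first and switches on CDX2, and CDX2, EOMES, TFAP2C and ELF5 then hold trophoblast stem cells in their fate. Elf5 is the textbook case of a lineage gate, methylated and silent in ES cells and unmethylated in trophoblast stem cells. ASCL2, HAND1 and GCM1 direct the spongiotrophoblast, giant cell and syncytiotrophoblast branches, and the syncytins, envelope proteins of captured retroviruses, fuse cells into the syncytiotrophoblast layers.

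RRBS reaches cytosines near CCGG sites, so the sequence just before each start is shown for Elf5, Syna and Gcm1, which had no promoter cytosine common to all libraries, and, for contrast, for Ascl2, which had. Each is 250 bases ending at the base before a RefSeq transcript start (assembly GRCm38.p6, the assembly of mm10), read on the strand of the gene, with CpG in capitals. The stretches of Elf5 are chr2:103411848-103412097 and, for a second start 11970 bp into the gene, chr2:103423818-103424067, both on the plus strand. The others are chr5:134560172-134560421 on the minus strand (Syna), chr9:78051708-78051957 on the plus strand (Gcm1) and chr7:142969265-142969514 on the minus strand (Ascl2).
Elf5 first start: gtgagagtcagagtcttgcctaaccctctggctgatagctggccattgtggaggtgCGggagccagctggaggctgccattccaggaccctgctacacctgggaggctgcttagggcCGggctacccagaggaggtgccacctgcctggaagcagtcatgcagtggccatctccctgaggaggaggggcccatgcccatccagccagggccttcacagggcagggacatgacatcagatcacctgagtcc
Elf5 second start: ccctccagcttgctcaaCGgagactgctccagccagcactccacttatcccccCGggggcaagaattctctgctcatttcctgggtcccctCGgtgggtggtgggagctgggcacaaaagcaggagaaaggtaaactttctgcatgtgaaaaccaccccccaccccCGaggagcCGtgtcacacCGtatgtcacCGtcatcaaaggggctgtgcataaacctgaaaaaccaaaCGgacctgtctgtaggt
Syna: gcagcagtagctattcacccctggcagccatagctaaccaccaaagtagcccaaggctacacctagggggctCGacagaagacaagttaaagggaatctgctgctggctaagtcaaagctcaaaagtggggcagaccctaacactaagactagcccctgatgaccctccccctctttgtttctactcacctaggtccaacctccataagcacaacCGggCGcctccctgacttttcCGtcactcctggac
Gcm1: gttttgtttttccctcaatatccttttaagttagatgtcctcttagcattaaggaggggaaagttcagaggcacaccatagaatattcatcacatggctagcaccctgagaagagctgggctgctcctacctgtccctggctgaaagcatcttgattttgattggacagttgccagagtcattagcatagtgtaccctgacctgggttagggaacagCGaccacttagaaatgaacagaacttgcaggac
Ascl2: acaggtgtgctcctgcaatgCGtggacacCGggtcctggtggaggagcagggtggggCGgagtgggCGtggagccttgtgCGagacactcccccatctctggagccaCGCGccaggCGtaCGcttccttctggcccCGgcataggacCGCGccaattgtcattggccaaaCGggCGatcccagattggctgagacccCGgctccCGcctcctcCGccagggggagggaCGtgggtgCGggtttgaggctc
The Elf5 first start has 2 CpGs and 1 CCGG in this stretch, its second start 8 CpGs and 1 CCGG, Syna 4 CpGs and 1 CCGG, and Gcm1 1 CpG and no CCGG. Ascl2 has 19 CpGs and 3 CCGG sites. CCGG, counted once since it reads the same on both strands, occurs in 47.1% of the 32851 promoter stretches of this length in the table, whose median is 6 CpGs. Measured cytosines in at least 1 library numbered 1, 2, 0, 0 and 14 in these stretches, in the order printed. The promoters of Syna and Gcm1 had no measured cytosine in the wider window either. The stretches of Cdx2 and Eomes, not printed, have 13 and 8 CpGs, 0 and 1 CCGG, and 3 and 0 measured cytosines. Yet their wider windows had 15 and 8 cytosines common to all libraries. CCGG was not counted in the rest of the wider windows, so its part in which promoters were reached was not tested.

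Total reads over cytosines were 197728785 to 255726544 in the 5 lines and 293920118 in round spermatids, where a read counts at each cytosine it covers. Averaged over the 232840 cytosines that reached 10 reads in each of the 6 libraries, methylation stood at 5.11%, 7.24% and 5.06% in DKO lines 1, 2 and 3, 8.08% and 4.12% in WT lines 1 and 2, and 22.4% in round spermatids. The deleted elements were checked by their reads, in windows placed from general knowledge. The H19 DMR window had no reads in any DKO line, 22 and 23 reads in WT lines 1 and 2, and none in round spermatids. The IG-DMR window had 0, 0 and 62 reads in the libraries labelled DKO lines 1, 2 and 3, 164 and 0 in WT lines 1 and 2, and 1 in round spermatids. A narrower IG-DMR window had 0, 0 and 0 reads in those libraries, 140 and 0 in WT lines 1 and 2, and 1 in round spermatids. Windows without reads thus also occurred in round spermatids and WT line 2, so absent reads in DKO lines cannot show a deletion. If the 62 reads, at 2 positions, fall within the deleted element, they go against the label of DKO line 3. DKO differences below are therefore given without that library where they have a direction. Cell identity was checked through methylation alone. The 4 measured promoters of genes at maternal germline imprints, which are unmethylated on paternal chromosomes, reached at most 2.68% in a line and 0.0474% in round spermatids. Their windows lie at the first starts of these genes and were not placed on the imprinted elements. Low levels there do not by themselves show a paternal genome. Of the 4 measured bodies of such genes, Peg3 was higher in the lines, at 12.1%, 53.7% and 17.4% in DKO lines, 48.1% and 32.9% in WT lines and 0.0331% in round spermatids, over 3 cytosines. The 4 measured promoters of pluripotency and of feeder fibroblast genes reached at most 1.22% in a line, and 7.13% in round spermatids, at Utf1. Promoters of both lists were low in the lines, so these levels cannot tell ES cells from feeder cells.

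Promoters were compared first. No member promoter that could be compared was methylated to more than 4.48% in any library, round spermatids included. A promoter here runs from 1 kb before to 0.5 kb after the first transcript start, and its level is the methylated share of the reads summed over its cytosines. Lines were called lower or higher than round spermatids where the mean of the 5 lines differed by at least 25 percentage points and the spermatid value lay outside the range of the lines. By that rule 0 of the 3 member promoters were called, against 1.74% of 8161 promoters called lower and 0.049% called higher over the genome.

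Cdx2, the transcription factor that marks the trophectoderm, lies at chr5:147300900-147307249 on the minus strand, and 15 cytosines of its promoter were measured in all 6 libraries. Their level was 0.00695%, 0.0418% and 0.254% in DKO lines 1, 2 and 3, 0.0544% and 0.00649% in WT lines 1 and 2, and 0.0290% in round spermatids. DKO line 3 was the highest, and round spermatids lay among the lines. Eomes (chr9:118478186-118486132, plus strand), a T-box factor of trophoblast stem cells and of mesendoderm, had 8 promoter cytosines. They stood at 2.21%, 0.0433% and 0.0282% in DKO lines 1, 2 and 3, at 0.0256% and 0.0159% in WT lines 1 and 2, and at 0.0388% in round spermatids. DKO line 1 stood apart from the other lines, which lay with the spermatids.

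Ascl2 (chr7:142966822-142969264, minus strand) is an imprinted gene read mainly from the maternal chromosome in the placenta, and every library here carries paternal copies. Over 10 promoter cytosines its level was 0.0370%, 0% and 0.0219% in DKO lines 1, 2 and 3, 4.48% and 0.0884% in WT lines 1 and 2, and 0% in round spermatids. The 0% of round spermatids rests on 5762 reads and has a 95% Wilson interval up to 0.0666%. Both WT lines lay above all DKO lines, though WT line 2 had only 4 methylated reads of 4524. In WT line 1 the level came almost wholly from 1 cytosine, 53 bp before the start, at 34.0% of 347 reads. The mean of the lines minus round spermatids was 0.925 points with that cytosine and 0.036 points at a minimum of 20 reads, which leaves it out. Over the 21 promoter cytosines that DKO line 3 measured by itself, it was at 0.810%, with 1 cytosine above 50%.

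The remaining members were reached at the promoter only in part. Tead4 (chr6:128227143-128300813, minus strand) had 1 promoter cytosine in all libraries, 243 bp before the start, at 0.12%, 0% and 0% in DKO lines 1, 2 and 3, 4.66% and 0.21% in WT lines 1 and 2, and 0.21% in round spermatids. Over the 4 to 25 promoter cytosines that each library measured by itself, Tead4 was at 0.886% in WT line 1 and at or below 0.113% in each other library. Tfap2c (chr2:172545678-172558622, plus strand) had 2 common cytosines in the window at its outer start, between 0% and 0.277% in each library. Its 11 own cytosines in WT line 1 came to 2.90%, from 43 methylated reads of 1485. Weighted equally they averaged 9.09%, and 1 of them was above 50%. Hand1 (chr11:57828713-57832147, minus strand) had 1 or 2 promoter cytosines in the DKO lines, all at 0%, and none in the WT lines or round spermatids.

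Elf5 (chr2:103412098-103450989, plus strand), the gate itself, could not be compared at its first start. DKO line 1 had 1 cytosine there, 133 bp before the start, at 0% of 47 reads. WT line 2 had 2 cytosines, 784 and 775 bp before the start, at 0% and 100% of 30 reads each. Round spermatids had none. Around the second start, 1 cytosine that lies 11738 bp into the gene was at 0.20% in DKO line 1. It was at 0% in DKO line 2 and at 0% in round spermatids, the 3 libraries having 499, 104 and 196 reads. Another cytosine at 11507 bp was read in round spermatids only, at 100% of 34 reads. The other measured cytosines of that window were at 0% in the lines that had them.

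Among member regions with at least 3 common cytosines, the sharpest differences were in bodies and flanks, at Elf5 and Syna. The region is the gene and 5 kb on each side without its promoter windows. Some short stretches or single cytosines within Tfap2c, Tead4 and Gcm1, given below, differed from round spermatids by more than the Elf5 body. By the same rule of size 2 of the 7 measured member bodies were called lower in the lines and 0 higher, against 35.7% lower and 0.246% higher among 9742 bodies. The members' share was thus near that of all genes. The median difference, lines minus round spermatids, was 0.56 percentage points over the 7 members and -4.39 over all bodies. With each cytosine weighted equally it was -4.38 and -16.5. Equal weight moved Tfap2c to -12.9 points, from 0.56, and Eomes to -4.38, from 7.79.

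**Figure D1:**
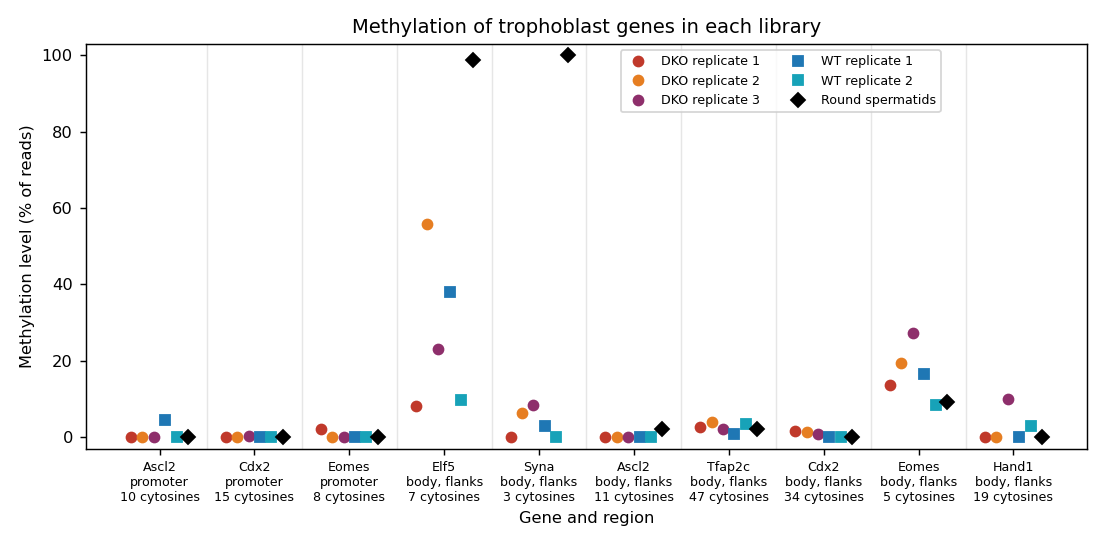
Methylation level (percent of reads) of each member region with at least 3 cytosines in all 6 libraries, 1 point per library. The promoters of Ascl2, Cdx2 and Eomes stayed at or below 4.48%, while at the bodies of Elf5 and Syna round spermatids stood at 98.8% and 100%, above all 5 lines.

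Within Elf5, 7 cytosines at chr2:103421085-103421202, 8987 to 9104 bp past the first start and 2866 bp or more before the second, were measured in all libraries. Their joint level was 8.15%, 55.8% and 23.1% in DKO lines 1, 2 and 3, 37.9% and 9.82% in WT lines 1 and 2, and 98.8% in round spermatids. Its 95% Wilson interval in round spermatids was 98.3% to 99.2%. No line overlapped the spermatids, and the lines averaged 27.0% ± 20.1 (SD, n = 5), a difference of -71.8 points. The spread among lines was wide, and DKO and WT lines overlapped. The lines with OG3 in their titles, DKO line 2 and WT line 1, were the highest at Elf5. They were also the highest over all common cytosines, and the part of that in the Elf5 values was not tested.

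Single cytosines showed how uneven the Elf5 stretch was. At 8987 bp, WT line 1 was at 43.8%, whereas DKO lines 1, 2 and 3 and WT line 2 were at 0%, values that allow at most 0.346%, 1.13%, 0.43% and 0.284% on a limit of 3 counts. A little further on, at 9017 bp, DKO lines 1, 2 and 3 were at 22.2%, 97.0% and 0%, WT lines 1 and 2 at 78.8% and 23.0%, and round spermatids at 100%. At 9100 bp the DKO lines were at 0%, 77.5% and 49.7%, the WT lines at 6.52% and 0%, and round spermatids at 100%. In DKO line 2 the cytosines at 8987, 9017 and 9021 bp had 265, 264 and 263 reads but levels of 0%, 97.0% and 52.1%. In round spermatids 6 of the 7 cytosines were at 100% and the last, at 9104 bp, at 88.7% of 230 reads. Removal of duplicate reads is not given in the sources used here, so reads may stand for fewer molecules.

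**Figure D2:**
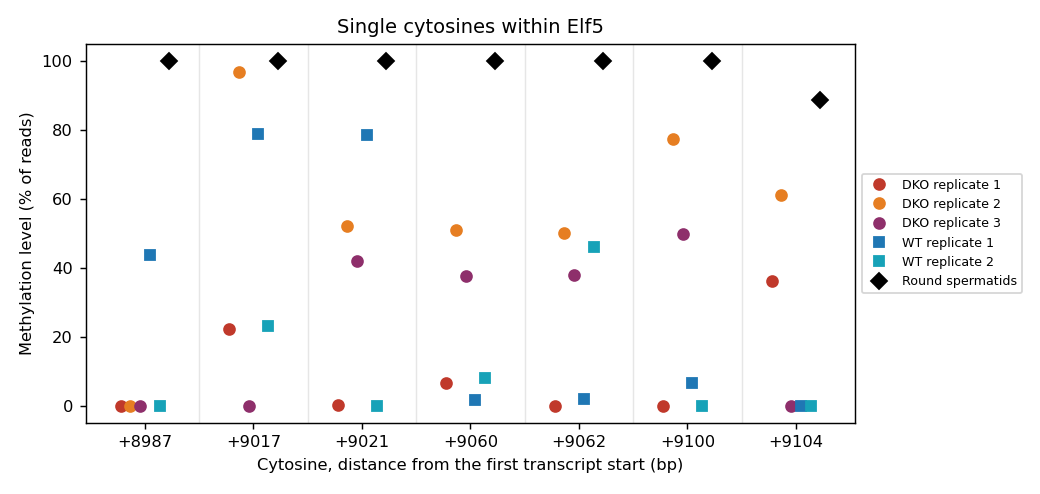
Methylation level of the 7 Elf5 cytosines measured in every library, placed by distance from the first transcript start in bp, 1 point per library. Round spermatids lie between 88.7% and 100%, while each line changes its level from one cytosine to the next.

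Syna (chr5:134557254-134577038, minus strand), the gene of syncytin A, had 3 cytosines in all libraries, at chr5:134576962-134576986. They lie 16791 to 16815 bp before the RefSeq start, near the outer end of a gene record that includes predicted transcripts. Their level was 0%, 6.24% and 8.41% in DKO lines 1, 2 and 3, 2.82% and 0.0482% in WT lines 1 and 2, and 100% in round spermatids, with an interval from 99.2%. At these 3 cytosines every line was far below the spermatids, and the mean difference was -96.5 points. Without WT line 1 the common cytosines numbered 4 and the difference was -51.6 points. These cytosines say nothing of the coding part or its start. Nearer to the coding part the libraries read different cytosines, and with the cytosines each library had by itself the difference was -34.6 points. Round spermatids were then at 48.1%, DKO lines 1, 2 and 3 at 9.69%, 8.23% and 9.45%, and WT lines 1 and 2 at 39.5% and 0.55%. Between 1620 and 1661 bp past the start, 6 cytosines were read in DKO line 2 and WT line 1 alone. They ran from 0% to 23.5% in DKO line 2 and from 0% to 97.3% in WT line 1. A cytosine 10926 bp before the start was read in all but WT line 1, at 52.0%, 0% and 73.0% in DKO lines 1, 2 and 3, at 0% in WT line 2 and at 0% in round spermatids, so spermatids were not the highest throughout the record. Elsewhere round spermatids had cytosines of their own, at 0% on 167 reads 1811 to 1816 bp past the start and at 100% on 576 reads 3587 to 3629 bp before it. Such cytosines were mixed past the start. At 1083 bp one was at 100% and its neighbour at 1080 bp at 0%, on 24 reads each. At 4605 bp one was at 100% of 629 reads, while its neighbours from 4594 to 4621 bp were at 0%.

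The other bodies differed little when summed. Tfap2c, over 47 cytosines, stood at 2.52%, 3.96% and 2.20% in DKO lines 1, 2 and 3, at 0.776% and 3.49% in WT lines 1 and 2, and at 2.03% in round spermatids. That sum hides contrasting stretches. Cytosines no more than 300 bp apart were therefore joined into groups, a choice made after the values were seen. Over the genome 30% of 24308 groups of at least 3 cytosines were lower in the lines by the rule of size, and 0.457% higher. Of 17 such groups in 7 members, 4 were lower (23.5%) and 0 higher, again near the share of all groups.

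The 4 lower groups were those of Elf5 and Syna and a pair within Tfap2c. At 8579 to 8622 bp, 3 Tfap2c cytosines were at 29.1%, 11.4% and 3.43% in DKO lines 1, 2 and 3, at 25.2% and 47.3% in WT lines 1 and 2, and at 100% in round spermatids. At 10110 to 10217 bp another 3 were at 35.9%, 27.2% and 31.1% in the DKO lines, at 0% and 38.5% in WT lines 1 and 2, and at 100% in round spermatids. The lines overlapped between genotypes at both stretches and not with the spermatids. Upstream in the same gene, 26 cytosines between 5464 and 6096 bp were at most 0.28% in every library. The Tfap2c start used is the outer end of a record with a predicted transcript, so these distances run from that end.

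The groups were then read by their distance from the start. Of the 8 groups within 2.5 kb of the first start used here, in 5 genes, 0 were called, against 5.59% called lower and 0.0863% higher of 10424 groups that near to a start over the genome. The 4 lower groups lay at least 8579 bp from that start, but the distance depends on the start chosen. The Syna group is 52 to 76 bp inside the outer end of its gene record, the kind of start used for Tfap2c. In the 13 groups not called, round spermatids reached at most 2.10%, and a line at most 29.04%. Single cytosines and pairs, below the minimum of 3, added 8 groups, of which 4 were lower, against 65.8% lower and 0.702% higher of 25201 such groups over the genome. A Tead4 cytosine 3508 bp past the start was at 0%, 0.62% and 0% in DKO lines 1, 2 and 3, at 0% in both WT lines, and at 100% of 316 reads in round spermatids. Another at 8328 bp was at 0%, 33.1% and 0% in the DKO lines, 0.93% and 17.6% in the WT lines, and 99.0% in round spermatids. The sole Gcm1 cytosine (gene at chr9:78051958-78065624, plus strand), 13033 bp past the start, was at 0%, 9.92% and 0% in the DKO lines, 37.7% and 0% in the WT lines, and 100% in round spermatids.

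**Figure D3:**
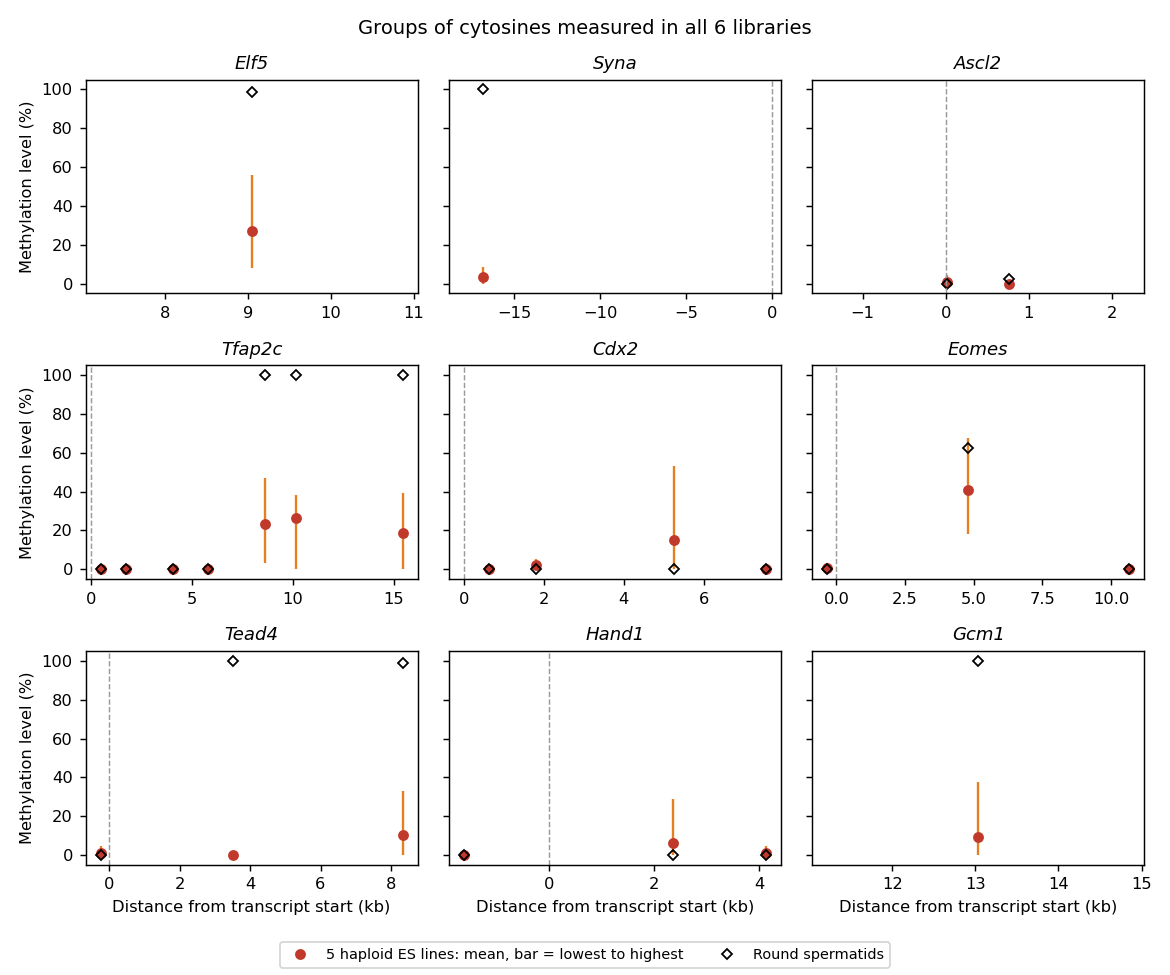
Groups of cytosines measured in all 6 libraries for 9 members, by distance from the transcript start in kb (dashed line), with the mean of the 5 lines (red, bar from lowest to highest line) and round spermatids (open diamonds). Spermatid levels near 100% lie away from the starts used, the nearest at 3508 bp (1 Tead4 cytosine) and, for groups of at least 3 cytosines, at 8579 bp, and stretches near the starts sit near 0%.

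Eomes held a cytosine that was partly methylated in all 6 libraries. That cytosine, 4803 bp past the start, was at 67.4%, 37.8% and 39.9% in DKO lines 1, 2 and 3, at 41.4% and 18.1% in WT lines 1 and 2, and at 62.4% in round spermatids, on 764 to 2686 reads. DKO line 1 was above the spermatids and the other lines below them. The 4 remaining Eomes body cytosines lay past the gene end and were near 0%. All 5 together came to 13.7%, 19.5% and 27.3% in the DKO lines, 16.4% and 8.41% in the WT lines and 9.27% in round spermatids, which lay among the lines. That sum depends on the share of reads that fell on the partly methylated cytosine. With equal weight per cytosine the DKO lines were at 13.6%, 7.56% and 7.98%, the WT lines at 8.60% and 3.63%, and round spermatids at 12.7%. The 11 body cytosines of Ascl2 were at 0.0294%, 0.0538% and 0.0264% in the DKO lines, 0.0216% and 0.0267% in the WT lines, and 2.10% in round spermatids. The spermatid value came almost wholly from 1 cytosine, 829 bp past the start, at 19.8% of 1867 reads.

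DKO and WT lines were compared on methylated and unmethylated counts with edgeR's quasi-likelihood test over all genes, with Benjamini-Hochberg adjustment. No promoter passed an adjusted p of 0.05 (0% of 7951, 206 at an unadjusted p under 0.05), and no body did (0% of 10682, 252 unadjusted). limma also called 0 of each. With a block for the names that titles share, edgeR called 17 promoters, none of a member, and 0 bodies. DKO line 1 shares no name with a WT line and so adds nothing to the difference in that fit. Accordingly none of the 3 promoters and 8 bodies tested among the members passed, the edgeR adjusted p being 0.964 at each promoter and 1 at each body.

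Among promoters, every DKO line was above every WT line at Eomes, as at 13.4% of 8354 promoters, and below at Ascl2, as at 4.2%. The Ascl2 promoter, over 11 cytosines common to the lines, averaged 0.0271% ± 0.0319 in DKO lines (SD, n = 3) and 2.12% ± 2.85 in WT lines (SD, n = 2). The difference was -2.09 points with WT line 1 and -0.0779 points without it. At the Eomes promoter it was 0.74 points with DKO line 1 and 0.0151 points without it. Without DKO line 3 these differences were -1.26 points at Ascl2 and 1.11 points at Eomes.

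Cdx2 was the 1 member body in which all DKO lines lay above all WT lines, as in 8.99% of 10809 bodies. Over 34 cytosines it stood at 1.53%, 1.45% and 0.869% in DKO lines 1, 2 and 3, at 0.0213% and 0.0617% in WT lines 1 and 2, and at 0.0415% in round spermatids. The difference, 1.24 points, had an unadjusted edgeR p of 0.0028 and an adjusted p of 1. It was 0.549 points without DKO line 1 and 1.44 without DKO line 3. A different cytosine carried most of it in each line. At 1564 bp past the start DKO lines 1, 2 and 3 were at 69.3%, 5.88% and 0.23%, the WT lines at 0%, and round spermatids at 0.14%. At 1762 bp DKO line 2 was at 22.5% and every other library at 0%. At 5257 bp the DKO lines were at 0.85%, 35.9% and 100%, WT lines at 0% and 5.88%, and round spermatids at 0%, on as few as 17 reads. By contrast 28 cytosines between 379 and 855 bp were at most 0.17% in all libraries.

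Hand1 likewise had isolated methylated cytosines, in lines of both genotypes. Over 19 body cytosines it was at 0%, 0.0400% and 10.1% in DKO lines 1, 2 and 3, at 0.00517% and 2.97% in WT lines 1 and 2, and at 0.0504% in round spermatids. In DKO line 3 the level came mainly from cytosines 2372 and 2378 bp past the start, at 43.8% of 616 reads and 43.3% of 626 reads, where all other libraries were at 0%. In WT line 2 it came mainly from a cytosine at 4151 bp, past the gene end, at 21.0% of 1304 reads, again with all other libraries at 0%. DKO line 3 and WT line 2 share the name AGH-2, but the cytosines concerned were different. The DKO minus WT difference was 5.16 points at the Elf5 body and 3.45 at Syna, below the SD among the 3 DKO lines (24.4 and 4.37). Without DKO line 3 the differences were 8.12 points at Elf5 and 1.69 at Syna. Without WT line 1 the Syna value was 14.1 points. At the Eomes body, over the 10 cytosines common to the lines, the difference was 7.002 points, against SDs of 6.72 (DKO) and 7.32 (WT). It was 1.67 points without WT line 2, 2.75 without DKO line 3 and 1.81 with equal weight per cytosine. Tead4, measured in the lines alone over 6 body cytosines, was at 1.81%, 4.27% and 0% in DKO lines and at 0.0815% and 3.18% in WT lines.

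**Figure D4:**
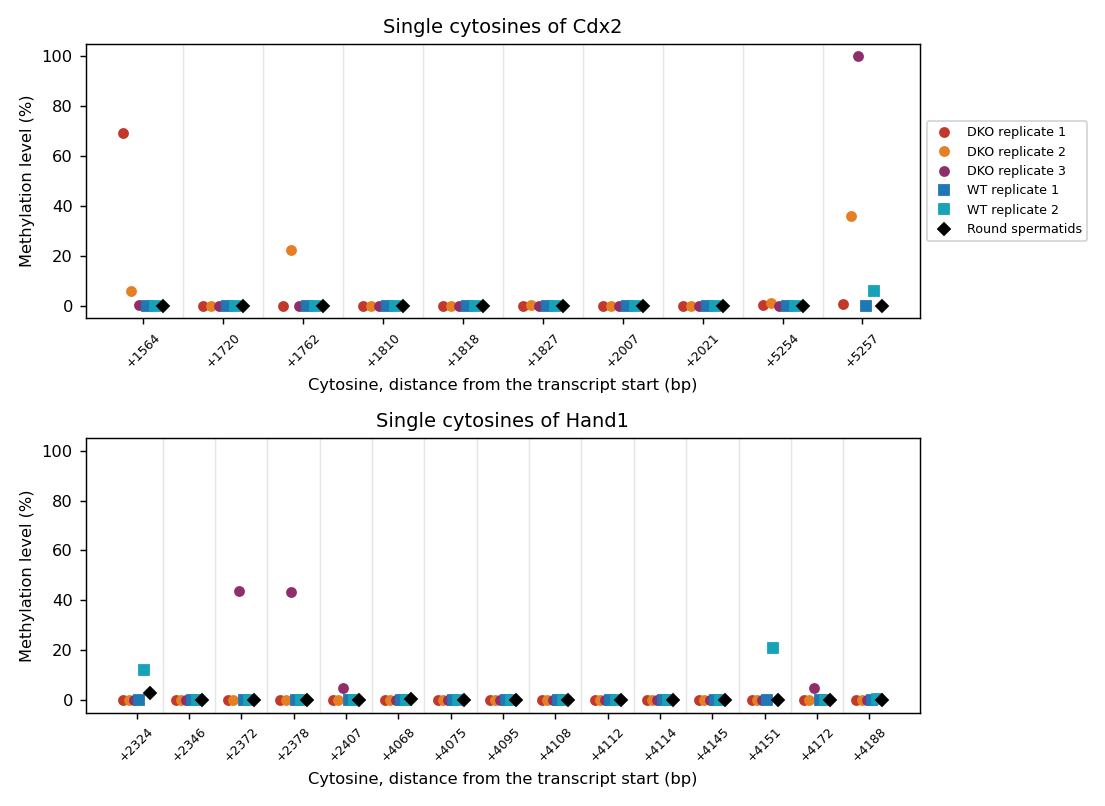
Methylation level of single cytosines of Cdx2 (upper panel, 1564 to 5257 bp past the start) and Hand1 (lower panel, 2324 to 4188 bp), 1 point per library. Most cytosines are at or near 0% in all libraries, and the few that are methylated are so in 1 or a few lines, such as 69.3% in DKO line 1 at Cdx2 and 43.8% in DKO line 3 at Hand1.

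A wider list of 25 trophoblast genes was read the same way. Of its 5 measured promoters (Cited1, Ets2, Krt18, Ovol2 and Yap1) 0 were called against round spermatids, and the highest line value was 4.94%, at Krt18 in DKO line 2. Of its 11 measured bodies 2 were called lower and 0 higher, against the 35.7% and 0.246% of all bodies. Fgfr2, the receptor through which FGF4 sustains trophoblast stem cells, was at 29.9%, 29.2% and 22.1% in DKO lines 1, 2 and 3, at 19.1% and 15.2% in WT lines 1 and 2, and at 64.9% in round spermatids, over 21 cytosines. Krt18, a keratin of simple epithelia and trophoblast, was at 10.4%, 3.43% and 0.898% in the DKO lines, 10.7% and 0.468% in the WT lines, and 37.8% in round spermatids, over 7 cytosines. All 5 lines were below the spermatids at both genes. Between DKO and WT lines, 0 of the list's 5 promoters and 0 of its 13 bodies passed the edgeR test at an adjusted p of 0.05.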

How the data were processed

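RRBS was done on 3 DKO lines, 2 WT lines and 1 round spermatid sample. Per the submitters' processing notes, Bismark 0.12.2 and mm10 were used; how reads were trimmed, and whether duplicates were removed, is not given in the sources used here. The authors deposited, per cytosine position, the methylated and the unmethylated read count and, as a fraction, their level. Within RefSeq promoter stretches all 116290 deposited positions were a C (58279) or a G (58011) of a CpG.

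Counts of cytosines with at least 10 reads in every compared library were summed per region, and regions with at least 3 such cytosines on chromosomes 1 to 19 and X were kept. Starts and strand came from RefSeq for 6 members. For Synb, Tfap2c, Tead4 and Hand1 the strand is from general knowledge and the start is the outer end of the gene record. Exons and introns were not assigned. Flanks reach neighbouring genes, such as Cat at Elf5 and Clip2 at Syna.

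DKO and WT lines were compared with edgeR 4.0.16 in R 4.3.3 (quasi-likelihood test, a term per library, group by methylation term, common dispersion, two-sided), checked on simulated data; limma 3.58.1, a block for line names in titles, other read and cytosine minimums, other windows, equal weight per cytosine and leaving out each line were alternatives. Lines and round spermatids were compared by size alone. Wilson intervals are at 95%; they and limits of 3 counts cover counting error only, and are too narrow because PCR reads are not independent molecules and a read counts at each cytosine it covers. Members and lists were chosen with earlier results of these data known. All members are named, and genes of the wider list where called; genes most like a member were to be named only for a called promoter, so none is.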

Additional observations from a re-analysis of the deposited data

Results flagged for a closer look

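Of the 10 member regions measured in all 6 libraries, 4 had a line far from the other 4 by Dixon's 95% criterion. Chance flags about 1 in 20 groups, but the same criterion flagged 30.0% of 7759 promoters and 18.9% of 9602 bodies, so such flags were common over the genome. At the Ascl2 promoter WT line 1 stood at 4.48%, with the other lines between 0% and 0.0884%. At the Eomes promoter DKO line 1 stood at 2.21%, with the others between 0.0159% and 0.0433%. At the Cdx2 promoter DKO line 3 stood at 0.254%, with the others between 0.00649% and 0.0544%. In the Ascl2 body DKO line 2 stood at 0.0538%, with the others between 0.0216% and 0.0294%, which rests on 3 methylated reads of 5579 and has a Wilson interval that holds the other lines. The lines concerned differ from region to region.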

How the results depend on the processing

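The lower calls at the Elf5 and Syna bodies held under 11 alternatives each, with differences from -79.0 to -67.1 points at Elf5 and from -97.7 to -34.6 at Syna. At Syna the -34.6 was with each library on its own cytosines, where WT line 1 was at 39.5% and round spermatids at 48.1%. Several of the alternatives left the cytosines unchanged and so could not move the call. They were 5 reads, 1 cytosine and the gene without flanks at both genes, and 20 reads at Syna. Every alternative kept the single spermatid library. The count of promoters called between DKO and WT lines, 0, became 17 with the line name block and 1 with a window of 0.5 kb on both sides; leaving out each line gave 0 to 1. With 1 cytosine as the minimum, promoters called against round spermatids numbered 434 (146 before), bodies 6009 (3506 before) and member bodies 4 (2 before), and a window of 2 kb and 1 kb gave 285 promoters and -1.44 points, lines minus round spermatids, at the Ascl2 promoter (0.925 before). Groups of any size gave 8 lower member groups instead of 4. DKO minus WT differences, none of them called, changed sign as follows. At 20 reads the Cdx2 promoter was at -0.00825 and the Tead4 body at -0.184 points. Leaving out a line gave -0.00608 to 0.117 at the Cdx2 promoter, -8.89 to 18.2 at the Elf5 body, -0.728 to 1.94 at the Tead4 body and -0.946 to 5.21 at the Hand1 body. The cause was not tested. The line name block, which pairs DKO line 2 with WT line 1 and DKO line 3 with WT line 2, called 0 member promoters and 0 member bodies. A single spermatid library and 165 common cytosines limit all of this.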
